A study of Mus musculus with 16 samples.

Results

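Transcripts of 10 genes that receive or shape angiogenic signals were measured in cultured mouse brain endothelial cells carrying human *APOE3* or human *APOE4*. The genes were chosen by name, as the VEGF receptors Kdr, Flt1 and Flt4, the co-receptors Nrp1 and Nrp2, the Tie receptors Tek and Tie1, the ligand Angpt2, and the tip-cell genes Esm1 and Apln. All 10 were found among the 39057 rows of the count table, and all 10 were among the 12481 genes that passed the filter on low counts. The cultures came from the cerebral cortex of targeted replacement mice of 21-28 days, both sexes, in which a human *APOE* isoform stands under the mouse promoter in place of the mouse gene. There were 8 *APOE3* and 8 *APOE4* cultures, with 4 males and 4 females in each genotype and 1 brain per culture. All were selected with puromycin at 8 µg/ml, grown to confluence in a growth medium for microvascular endothelium, and otherwise untreated. The replacement is carried by the whole animal and is not limited to endothelium, and no culture came from an adult animal.

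VEGF receptor 2, encoded by Kdr, carries the main growth and permeability signal of VEGF in endothelium, while VEGF receptor 1, encoded by Flt1, binds VEGF tightly and limits how much reaches Kdr. Angiopoietins act through the receptor TIE2, encoded by Tek, with TIE1 as its partner, and Angpt2 released by the endothelium can weaken the quieting signal that Angpt1 gives. During sprouting, the leading tip cell raises Esm1, Apln and Angpt2, and the following stalk cells are held back by Notch signaling.

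The 16 libraries held 12717847 to 18624417 counts each. Human APOE had 15504 to 22318 counts in *APOE3* libraries and 7672 to 14722 in *APOE4* libraries, and reads assigned to mouse Apoe numbered 128 to 290, so the inserted gene was read in every library, while counts per gene do not tell the isoforms apart. Of 14 markers of brain endothelium all were tested, with Cdh5 at 817 and Cldn5 at 926 CPM (counts scaled to a common library size) per kilobase of exon on average, and their summed level was 17740 to 19220 CPM in *APOE3* and 17710 to 19840 CPM in *APOE4*. Of the 14, 1 passed edgeR's test, the sialomucin Emcn, which rose by a log2 fold change of 0.14 (SE 0.0324, edgeR adjusted p = 0.0106) and lay over the median of *APOE3* in 8 of 8 *APOE4* cultures. The transporter Slco1a4 had -0.29 (SE 0.101, edgeR adjusted p = 0.0653). Mfsd2a, a transporter typical of brain endothelium in the animal, was low at 1.52 CPM per kilobase. Markers of pericytes and smooth muscle summed to 190.4 to 359 CPM in *APOE3* and 224 to 342 CPM in *APOE4*, and the 6 microglia and macrophage markers never exceeded 0.792 CPM in sum. Of the markers of other cells, 6 of 9 for pericytes and smooth muscle, 3 of 5 for fibroblasts, 1 of 5 for astrocytes, 1 of 5 for oligodendrocytes and 2 of 4 for neurons had counts enough to be tested. Of these 0 passed edgeR's test, against 12.8% of all tested genes. An unadjusted p under 0.05 was found for 1 of 6 pericyte and smooth muscle markers and 0 of 3 fibroblast markers. The 1 astrocyte (log2 fold change 0.65), 1 oligodendrocyte (-0.59) and 2 neuron markers (0.21 and 0.64) tested all had one, against 29.0% of all tested genes. In bulk libraries, fewer cells of a type and less RNA per cell cannot be told apart.

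Across all 16 libraries, compared per kilobase of exon so that genes of different length can be set side by side, Angpt2 stood highest and Esm1 lowest. The length used is the union of all annotated exons, which need not be the length of the transcript present. The order of genes of similar level, and ratios between genes, depend on that length. In plain CPM, Flt1 averaged more than Kdr (842 against 776 in *APOE3*, 831 against 757 in *APOE4*). Angpt2 averaged 663 CPM per kilobase and in every library exceeded Apln, the second in the order at 280.0. Apln and Tie1, at 269, could not be ordered, since Apln was the higher in 8 of 16 libraries. Kdr followed at 84.9 CPM per kilobase and was above Tek in all 16 libraries.

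Below Kdr came a group of similar level, namely Tek at 67.5, Flt4 at 65.2, Flt1 at 62.0 and Nrp2 at 52.2 CPM per kilobase. The ranges of these neighbours overlapped, with Tek above Flt4 in 11 of 16 libraries, Flt4 above Flt1 in 14 and Flt1 above Nrp2 in 13. Nrp1, at 11.4 CPM per kilobase, was below Nrp2 in every library. Esm1 had only 10 to 56 counts per library, or 0.926 CPM per kilobase, so its values carry the largest counting error of the 10 genes. In CPM, 8 of the 10 genes were at or above the 95th percentile of tested genes, whereas Nrp1 was at the 84.7 and Esm1 at the 9.96 percentile.

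**Figure D1:**
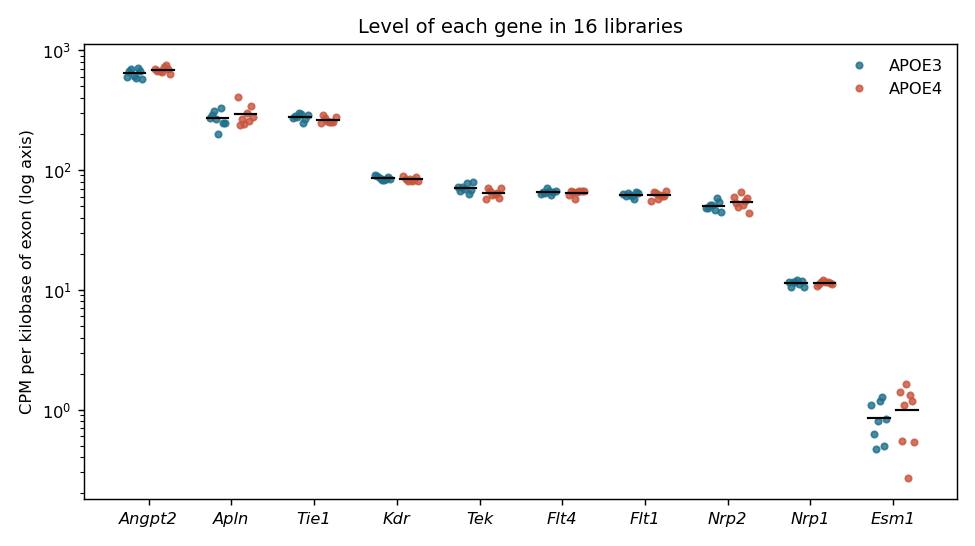
CPM per kilobase of exon for the 10 genes in 16 libraries, on a log axis, with 1 point per library, *APOE3* in blue, *APOE4* in red, and a line at each genotype mean. Angpt2 averaged 663 and Esm1 0.926 CPM per kilobase, and the genotypes overlapped for every gene.

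No member passed edgeR's test between genotypes at an adjusted p under 0.05. In that quasi-likelihood test, 0 of 10 members passed while 12.8% of all tested genes did, and 3 members (Tek, Tie1 and Angpt2) had an unadjusted p under 0.05, near the 29.0% of all tested genes that did. DESeq2's Wald test passed 1 member (Tek) and 15.7% of all genes, and limma's voom with quality weights passed 0 and 13.1%. Of the 10 members, 5 were higher and 5 lower in *APOE4*, with a median log2 fold change of -0.0041, against -0.0002 over all tested genes. The *APOE3* and *APOE4* libraries overlapped for each of the 10 members, whereas 0.625% of all tested genes showed no overlap.

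Among the VEGF receptors, Kdr (chr5:75932827-75978458, minus strand, GRCm38) ranged over 740.5, 771 and 827 CPM (lowest, median, highest) in *APOE3* libraries and 727, 753 and 809 CPM in *APOE4*. The ranges overlapped over most of their length, although 6 of 8 *APOE4* libraries were below the *APOE3* median. The log2 fold change of Kdr was -0.04 (SE 0.0318, 95% interval -0.10 to 0.03, edgeR adjusted p = 0.468).

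Flt1 (chr5:147561604-147726011, minus strand) gave 779, 846 and 882 CPM in *APOE3* and 741, 829 and 903 CPM in *APOE4*. *APOE4* libraries lay on both sides of the *APOE3* range, 2 above its top and 2 below its bottom. Its log2 fold change was -0.02 (SE 0.0402, 95% interval -0.10 to 0.06, edgeR adjusted p = 0.804). Gene counts do not separate the membrane form of Flt1 from its secreted form, which traps VEGF outside the cell.

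Flt4 (chr11:49609263-49652739, plus strand), the receptor for VEGF-C and VEGF-D and best known from lymphatic endothelium, gave 513, 542 and 578 CPM in *APOE3* and 467, 544 and 555 CPM in *APOE4*. The *APOE4* minimum came from replicate 38. The log2 fold change was -0.02 (SE 0.0367, edgeR adjusted p = 0.724). Of 4 lymphatic markers, Prox1, the regulator that defines lymphatic identity, had 3 to 19 counts per library and Ccl21a 0 to 5. Lyve1 had 315 to 594 counts and Pdpn 4 to 88, and these 2 were tested, with 0 passing edgeR's test.

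The co-receptors Nrp1 and Nrp2, which bind VEGF and class 3 semaphorins, differed in their spread, with a coefficient of variation of 4.98% and 3.58% for Nrp1 and 8.46% and 12.5% for Nrp2 in *APOE3* and *APOE4*. Nrp1 (chr8:128358604-128503363, plus strand) gave 103, 114 and 117 CPM in *APOE3* and 106, 112 and 119 CPM in *APOE4*, and a log2 fold change of 0.01 (SE 0.0335, edgeR adjusted p = 0.874). Of its exonic bases 80, or 0.818%, are also annotated to the microRNA gene Mir1903. Nrp2 (chr1:62703285-62818695, plus strand) gave 531, 587 and 686 CPM in *APOE3* and 517, 638 and 778 CPM in *APOE4*. In 6 of 8 *APOE4* libraries Nrp2 was above the *APOE3* median, but the lowest of all 16 values also belonged to *APOE4*. Its log2 fold change was 0.11 (SE 0.0679, 95% interval -0.03 to 0.26, edgeR adjusted p = 0.279).

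Tek and Tie1 had the lowest fold changes of the 10. Tek (chr4:94739289-94874976, plus strand) gave 296, 333 and 371 CPM in *APOE3* and 268, 298 and 334 CPM in *APOE4*. In 7 of 8 *APOE4* libraries Tek was below the *APOE3* median, and 4 were below every *APOE3* library. The means were 335 ± 25.4 and 301 ± 24.3 CPM (SD, n = 8 each), a log2 fold change of -0.15 (SE 0.0520, 95% interval -0.26 to -0.04), with an unadjusted p in edgeR of 0.00871 and an adjusted p of 0.0597.

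The adjusted p of Tek changed sides with the setting. DESeq2's Wald test gave an adjusted p of 0.0377, and edgeR gave one under 0.05 in 3 of the 16 fits that left out 1 library, those without *APOE3* replicate 31, *APOE4* replicate 36 and *APOE4* replicate 43, over a range of 0.0242 to 0.13.

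Tie1 (chr4:118471191-118490061, minus strand) gave 1209, 1371 and 1469 CPM in *APOE3* and 1205, 1249.7 and 1408 CPM in *APOE4*. Again 7 of 8 *APOE4* libraries were below the *APOE3* median, but only 1 was below the *APOE3* range. The log2 fold change was -0.09 (SE 0.0413, 95% interval -0.18 to -0.01, edgeR adjusted p = 0.135). In the same libraries the ratio of Tie1 to Tek per kilobase had a median of 3.87 in *APOE3* and 4.03 in *APOE4*, with ranges of 3.67 to 4.27 and 3.91 to 4.31.

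Angpt2 (chr8:18690263-18741562, minus strand) gave 2113, 2365 and 2623 CPM in *APOE3* and 2340.0, 2515 and 2790.2 CPM in *APOE4*. Here 7 of 8 *APOE4* libraries were above the *APOE3* median, and 2 were above the *APOE3* range. The means were 2359.7 ± 198 and 2533 ± 142 CPM (SD, n = 8 each), and the log2 fold change was 0.10 (SE 0.0476, 95% interval 0.00 to 0.20, edgeR adjusted p = 0.159). Per kilobase, Angpt2 exceeded its receptor Tek by a median of 9.24 times in *APOE3* (7.28 to 11.3) and 11.1 times in *APOE4* (9.02 to 12.2), a ratio not tested here.

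Of the secreted tip-cell products, Esm1 (endocan, chr13:113209659-113218098, plus strand) gave 0.991, 1.72 and 2.68 CPM in *APOE3* and 0.562, 2.40 and 3.46 CPM in *APOE4*. Its log2 fold change of 0.24 had a wide interval of -0.39 to 0.87 (SE 0.302, edgeR adjusted p = 0.649), and its coefficient of variation between cultures was 36.6% in *APOE3* and 49.0% in *APOE4*. Apln (chrX:48025146-48034853, minus strand), the ligand of the apelin receptor, gave 632, 842 and 1026 CPM in *APOE3* and 754, 858 and 1278 CPM in *APOE4*. The highest Apln value came from *APOE4* replicate 35, and the medians of the genotypes were close. The log2 fold change was 0.11 (SE 0.104, 95% interval -0.10 to 0.33, edgeR adjusted p = 0.510).

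**Figure D2:**
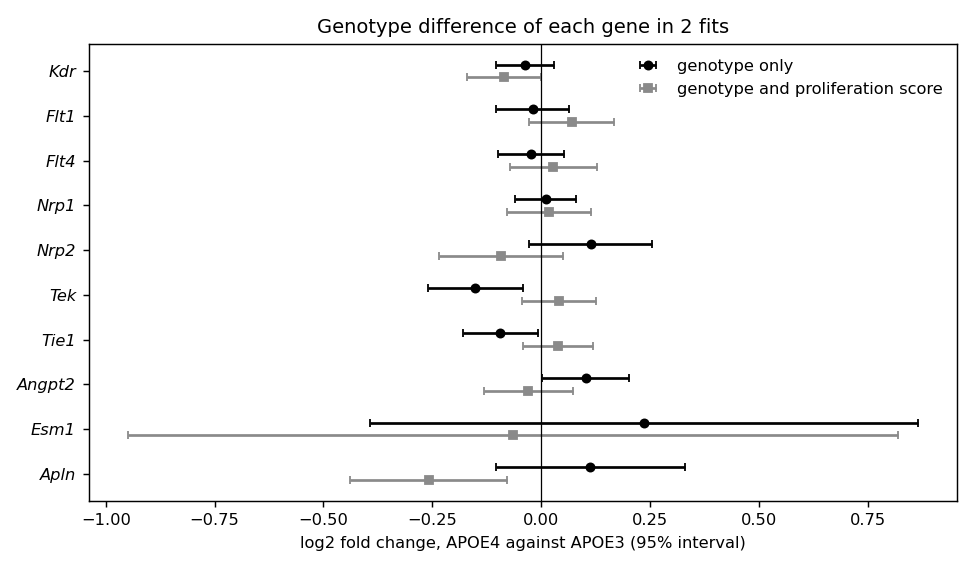
Log2 fold change of *APOE4* against *APOE3* for the 10 genes with 95% intervals, from edgeR with genotype alone (black circles) and with the proliferation score added (grey squares). With genotype alone Tek sits at -0.15 and Tie1 at -0.09, and with the score in the fit they sit at 0.04 and 0.04.

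Sex made no difference that passed the threshold in these genes. Within males 0 of 10 members passed (0% of all tested genes, 1775 genes with an unadjusted p under 0.05), within females 0 of 10 (0%, 2428 genes), and for the interaction of genotype and sex 0 of 10 (0%, 345 genes), all in edgeR. DESeq2's Wald test was not run on these comparisons. The log2 fold change of Tek was -0.13 in males (SE 0.0764) and -0.18 in females (SE 0.0764), where edgeR's adjusted p was 0.211. Between females and males across both genotypes 0 of 10 members passed, against 0.0721% of all tested genes.

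The genes that act on or beside these receptors mostly did not pass the test either. Of 83 pathway genes in 9 lists, 75 were tested and 6 passed, or 8.0% against 12.8% of all tested genes. Their median log2 fold change was -0.05, and 48 of the 75 were below 0. An unadjusted p under 0.05 was found for 28 of the 75, a larger share than the 3617 of all 12481 tested genes (29.0%). With the proliferation score (the mean level of cell division genes, described further on) as a covariate, 0 of the 75 passed. In that fit 0 of all 12481 tested genes passed.

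Each list is described by its counts, beside 12.8% of all tested genes passing and 29.0% at an unadjusted p under 0.05. Of 5 VEGF ligands 0 passed, with 2 at an unadjusted p under 0.05. Pgf, the placental growth factor whose receptor kinase is Flt1, was by far the most abundant at 94.8 CPM per kilobase, while Vegfa stood at 0.776. Vegfd, a ligand of Flt4, had the largest fold change at -0.31 (SE 0.122, edgeR adjusted p = 0.0932), with every *APOE4* library below or at the *APOE3* median.

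Of the angiopoietin partners only Ptprb, the phosphatase VE-PTP that dampens Tek, and Dok2, an adaptor of Tek, could be tested, and 0 of 2 passed. Ptprb was abundant at 201 CPM per kilobase with a log2 fold change of -0.01, and Dok2 had 0.05. Angpt1, the agonist of Tek that surrounding mural cells make in the animal, had 0 to 5 counts and Angpt4 had 0 in each library. These counts are at or near the floor of 3 counts, so no fold change is given. Svep1, a large matrix protein that binds Tie1, had 0 to 4 counts.

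Of the semaphorins and plexins, which share the neuropilins, 0 of 11 passed, and 0 had an unadjusted p under 0.05. Sema3g at 80.5 and Plxnd1 at 197 CPM per kilobase were the most abundant ligand and receptor of the list. Sema3b had the largest fold change at -0.25 (SE 0.231, edgeR adjusted p = 0.503). Aplnr, the receptor of apelin, was low at 1.33 CPM per kilobase, far under its ligand at 280.0, with a log2 fold change of -0.19 (SE 0.189, edgeR adjusted p = 0.547), and its second ligand Apela had 0 counts.

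Of 17 further tip-cell genes 2 passed in opposite directions. Nid1, a basement membrane protein, rose from 736 ± 61.7 to 877 ± 111 CPM (SD, n = 8 each) with a log2 fold change of 0.25 (SE 0.0684, edgeR adjusted p = 0.0217). Ramp3, a co-receptor for adrenomedullin, fell from 15.5 ± 3.11 to 11.4 ± 2.48 CPM with a log2 fold change of -0.44 (SE 0.133, edgeR adjusted p = 0.0345). The calls of Nid1 and Ramp3 stood in 14 and 9 of the 16 fits that left out 1 library. With the proliferation score as a covariate both lost their calls, and Nid1 turned to -0.01. Dll4, the Notch ligand of tip cells, had a log2 fold change of -0.05 (edgeR adjusted p = 0.685), and 13 of the 17 genes were below 0. Of 6 tested Notch and stalk-cell genes 0 passed, with 3 at an unadjusted p under 0.05, and Hes1 had the largest fold change at -0.30 (SE 0.122, edgeR adjusted p = 0.109).

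Downstream of Kdr, 2 of 13 signaling partners passed. Plcg1, the phospholipase that Kdr activates, fell from 455 ± 34.8 to 401 ± 26.4 CPM with a log2 fold change of -0.18 (SE 0.0486, edgeR adjusted p = 0.0209), and every *APOE4* library was at or below the *APOE3* median. Ptprj, a phosphatase that acts on Kdr, rose from 23.4 ± 3.75 to 28.5 ± 2.82 CPM with a log2 fold change of 0.29 (SE 0.0884, edgeR adjusted p = 0.0382). Plcg1 passed in 15 and Ptprj in 6 of the 16 fits that left out 1 library. Neither passed with the proliferation score as a covariate.

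Of 8 genes that VEGF induces 0 passed, and 6 were below 0. An unadjusted p under 0.05 was found for 5 of the 8, against 29.0% of all tested genes. The largest fold change of that list was -0.56 for Egr3 (SE 0.201, edgeR adjusted p = 0.0706), an early transcription factor. Of 12 tested regulators 2 passed. Hif1a, the oxygen-sensing factor, rose from 116 ± 5.60 to 128 ± 2.98 CPM with a log2 fold change of 0.15 (SE 0.0311, edgeR adjusted p = 0.0080), without overlap between genotypes and in all 16 fits that left out 1 library. Gata2, an endothelial factor, fell from 279 ± 22.0 to 247 ± 17.3 CPM with a log2 fold change of -0.17 (SE 0.0503, edgeR adjusted p = 0.0315) and passed in 10 of those fits. With the proliferation score as a covariate Hif1a and Gata2 both lost their calls, and Gata2 turned to 0.0077. Foxc2 had the largest fold change at 0.60 (SE 0.300) without passing (edgeR adjusted p = 0.188).

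**Figure D3:**
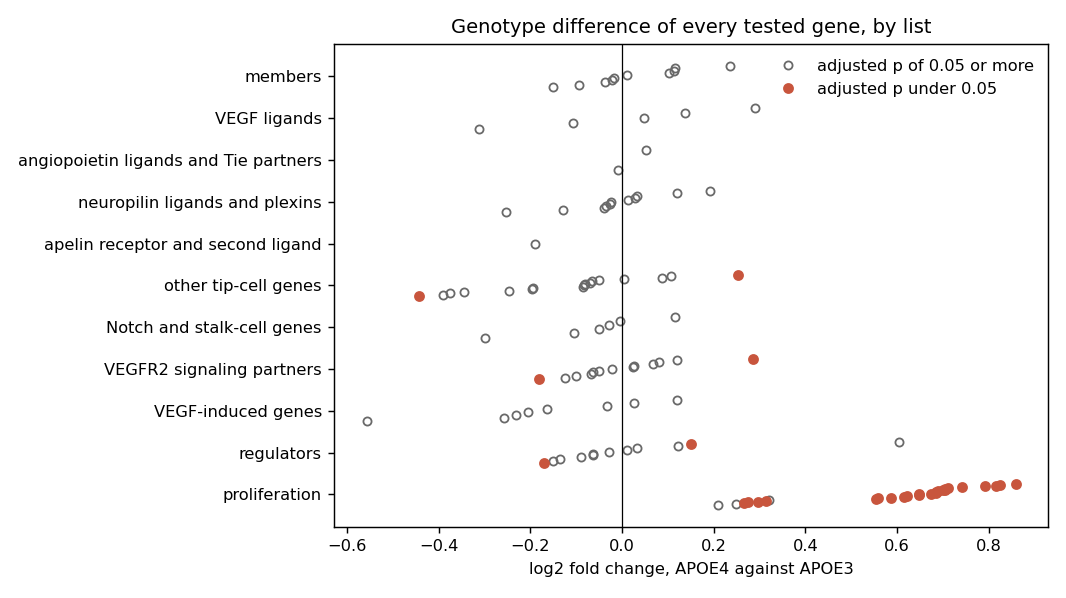
Log2 fold change of *APOE4* against *APOE3* for every tested gene of each list, 1 circle per gene, filled where edgeR's adjusted p was under 0.05. The 10 members hold 0 filled circles and the 9 pathway lists 6, whereas 24 of 27 proliferation genes are filled and lie above 0.

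With genotype in the fit, 5 of the 10 members followed how strongly proliferation genes were expressed in the cultures. That is a measure of transcripts and not of cell division. In the paper's own assays, few nuclei at confluence were labelled by bromodeoxyuridine, with no genotype difference in that or in cell density. The proliferation score is the mean log2 CPM of 27 genes of DNA replication and mitosis, of which all 27 had a log2 fold change above 0 in *APOE4* (median 0.65) and 24 passed edgeR's test. It was 5.72 ± 0.355 in *APOE3* and 6.31 ± 0.275 in *APOE4* libraries (SD, n = 8 each), and it overlapped, since *APOE3* replicate 31 at 6.28 was above *APOE4* replicates 36, 43, 37 and 39 at 5.99, 6.01, 6.20 and 6.28 (6.277 against 6.275 for the last), and *APOE3* replicate 27 at 6.00 was above *APOE4* replicate 36.

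With genotype in the same edgeR fit, 5 of 10 members changed with the score, against 18.1% of all tested genes. Tek changed by -0.32 on the log2 scale per unit of score (SE 0.0492, edgeR adjusted p = 5.74e-05) and Tie1 by -0.22 (SE 0.0461, adjusted p = 0.00165), so both receptors were lower where proliferation genes were higher. Apln changed by 0.61 (SE 0.101, adjusted p = 0.000149), Nrp2 by 0.35 (SE 0.0814, adjusted p = 0.00446) and Angpt2 by 0.22 (SE 0.0585, adjusted p = 0.00960), so these were higher. Flt1 changed by -0.15 (adjusted p = 0.0689), and Kdr, Flt4, Nrp1 and Esm1 did not pass. The score was set against the members after their values had been seen, and the score and the members come from the same libraries and the same scaling.

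Tek was highest in the 2 *APOE3* libraries with the lowest score, replicate 33 with 371 CPM and replicate 30, and lowest in *APOE4* replicate 35, which had the highest score of all at 6.79. The same *APOE4* replicate 35 had the lowest Tie1 and Flt1 and the highest Kdr and Apln of the *APOE4* libraries. In *APOE3*, replicate 31 had the highest score and, of that genotype, the lowest Tek, Tie1, Flt1 and Flt4 and the highest Nrp2, Angpt2, Esm1 and Apln. Leaving out 1 library in turn kept 4 to 6 members past the threshold, and Tek, Tie1, Nrp2 and Apln passed in each of those fits, while Angpt2 missed without *APOE3* replicate 31 (adjusted p = 0.0545).

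Over the 8 libraries of 1 genotype, Pearson's r of Tek with the score was -0.885 in *APOE3* (exact permutation p = 0.00697, adjusted p = 0.0277) and -0.971 in *APOE4* (exact permutation p = 0.000124, adjusted p = 0.00248). Spearman's rho was -0.690 in *APOE3*, which did not pass (exact permutation p = 0.0694, adjusted p = 0.126), and -0.976 in *APOE4* (exact permutation p = 0.000397, adjusted p = 0.00794). With the 2 libraries farthest from the median score left out, r was -0.687 and -0.965. Of the 20 relations of members to the score, 10 passed by r and 7 by rho after adjustment, and with 6 libraries 0 passed, where the smallest exact p that 6 libraries allow is 0.00278. Nrp2 and Angpt2 passed by r in *APOE3* (0.922 and 0.874) but not in *APOE4* (0.624 and 0.342). For Apln and Kdr in *APOE4* the relation rested on 2 libraries, since r went from 0.828 to 0.0877 for Apln and from 0.784 (adjusted p = 0.0457, exact permutation test) to -0.0331 for Kdr without them.

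**Figure D4:**
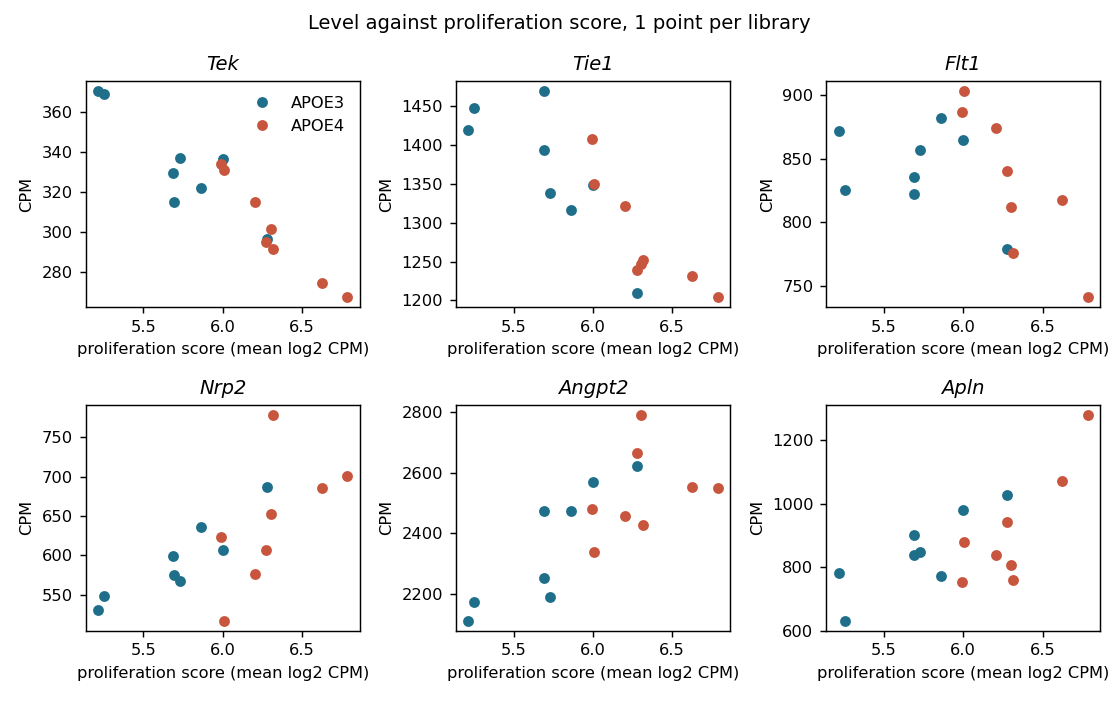
CPM of 6 members against the proliferation score (mean log2 CPM of 27 genes), 1 point per library, *APOE3* in blue and *APOE4* in red, with axes that do not start at 0. Tek runs from 371 CPM at the lowest score to 268 CPM at the highest, and Apln reaches 1278 CPM at the highest score.

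With the score in the fit, the genotype difference was 0.04 for Tek (SE 0.0412, 95% interval -0.04 to 0.13, edgeR adjusted p = 0.850) and 0.04 for Tie1, and that of Angpt2 was -0.03. For Apln it was -0.26 (95% interval -0.44 to -0.08, unadjusted p in edgeR of 0.00710, adjusted p = 0.562). For Kdr it was -0.0856 (95% interval -0.170 to -0.0007, unadjusted p in edgeR of 0.0482, adjusted p = 0.684). In that fit edgeR passed 0 of all tested genes for genotype, with 899 at an unadjusted p under 0.05. This fit puts 1 straight line through the whole range of the score, which the genotypes share in part. Its part in the genotype differences was not tested in any other way.

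Some of the 10 members also lined up with one another, and others did not. After genotype means were removed, r over 16 libraries was 0.81 between Tek and Tie1, 0.73 between Tek and Flt1, -0.75 between Tek and Nrp2 and -0.74 between Tek and Apln. With the score, r was -0.91 for Tek, -0.83 for Tie1, -0.59 for Flt1, 0.80 for Apln, 0.72 for Nrp2 and 0.69 for Angpt2. Whether the members line up with one another apart from the score was not tested. Other pairs were near 0, such as Esm1 with Apln (0.01), Nrp1 with Tie1 (0.04) and Nrp1 with Angpt2 (-0.04). Kdr and Flt1, the paired VEGF receptors, had r of -0.36, but the sign differed between the genotypes. Within *APOE3* r was 0.217 (exact permutation p = 0.607, adjusted p = 0.803). Within *APOE4* it was -0.706 (exact permutation p = 0.0508, adjusted p = 0.187). The ratio of Flt1 to Kdr per kilobase was 0.681 to 0.765 in *APOE3* and 0.613 to 0.828 in *APOE4*.

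Of 10 pairs of members set against each other within each genotype, 1 of the 20 relations passed. In *APOE4*, Tek and Tie1 had r = 0.933 over 8 libraries (exact permutation p = 9.92e-05, adjusted p = 0.00198) and rho = 0.929 (exact permutation p = 0.00223, adjusted p = 0.0446), and r stayed at 0.913 without the 2 libraries farthest from the median of Tek (exact permutation p = 0.00556, adjusted p = 0.0556). In *APOE3* the same pair had r = 0.704 (exact permutation p = 0.0514, adjusted p = 0.187) and rho = 0.524 (exact permutation p = 0.197, adjusted p = 0.618). Angpt2 with Tek in *APOE3* had r = -0.813 (exact permutation p = 0.0113, adjusted p = 0.113) and rho = -0.857 (exact permutation p = 0.0107, adjusted p = 0.107). That r was -0.608 without the 2 libraries farthest from the median of Angpt2. In *APOE4*, Angpt2 with Tek had r = -0.387 (exact permutation p = 0.347, adjusted p = 0.694).

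**Figure D5:**
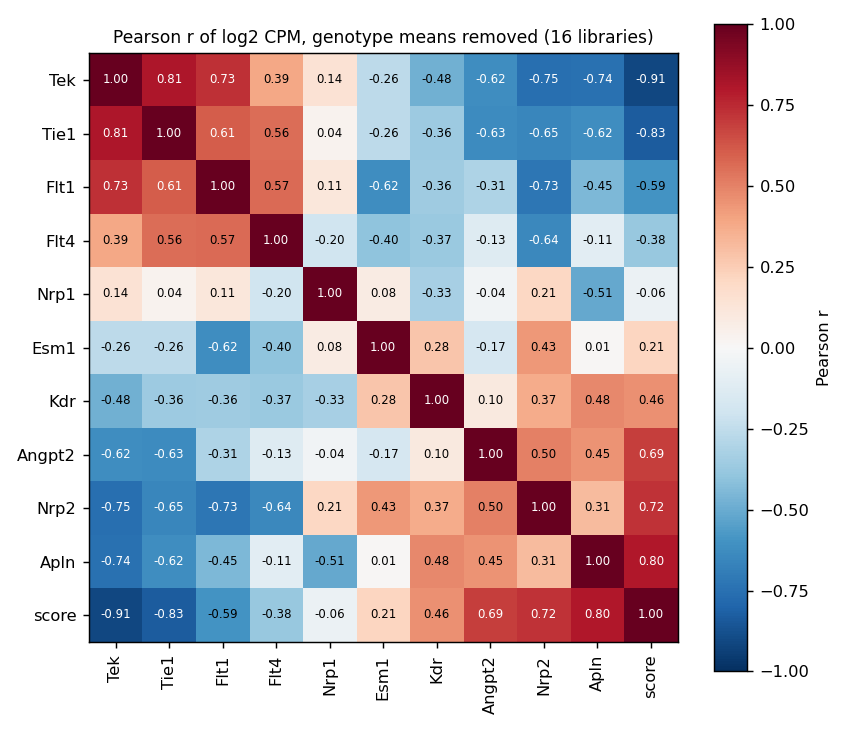
Pearson r between log2 CPM of the 10 members and the proliferation score over 16 libraries, with genotype means removed, ordered by r with the score. Tek (-0.91) and Tie1 (-0.83) stand at one end and Apln (0.80) at the other.

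Outside the list, the genes with the most similar residual pattern over the 16 libraries were Xrcc5 (r = 0.828), Gtf2h1 (0.826) and Med21 (0.821) for Kdr. For Angpt2 they were Lockd (0.933), Tmem176b (0.927) and Tmem176a (0.918). For Esm1 they were Vps53 (0.859), Ccdc107 (0.811) and Trp53cor1 (0.807). For Apln they were Ccl2, a chemokine (0.901), Ulbp1 (0.899) and Hjurp, a centromere protein (0.897). These are the 3 highest of all tested genes for each, given as a description.

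The promoter windows of 4 of the 5 members that passed the test with the score are printed (the fifth, Angpt2, has none here) so that the pair that fell (Tek, Tie1) can be set beside the pair that rose (Apln, Nrp2). Each runs 5′ to 3′ on the strand of the gene from 250 bases before to 50 after its start, from RefSeq, build GRCm38.p6, and capitals mark the core letters bound by ETS factors, GGAA on either strand (TTCC on the other). Tek lies at chr4:94739039-94739338 on the plus strand, Tie1 at chr4:118489800-118490099 on the minus strand, Apln at chrX:48034804-48035103 on the minus strand and Nrp2 at chr1:62703067-62703366 on the plus strand.
Tek: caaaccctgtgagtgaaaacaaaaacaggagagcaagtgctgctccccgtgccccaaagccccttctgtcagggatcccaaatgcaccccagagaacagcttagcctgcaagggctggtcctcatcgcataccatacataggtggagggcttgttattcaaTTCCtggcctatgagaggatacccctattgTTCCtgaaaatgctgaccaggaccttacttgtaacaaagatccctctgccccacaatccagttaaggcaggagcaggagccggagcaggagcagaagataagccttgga
Tie1: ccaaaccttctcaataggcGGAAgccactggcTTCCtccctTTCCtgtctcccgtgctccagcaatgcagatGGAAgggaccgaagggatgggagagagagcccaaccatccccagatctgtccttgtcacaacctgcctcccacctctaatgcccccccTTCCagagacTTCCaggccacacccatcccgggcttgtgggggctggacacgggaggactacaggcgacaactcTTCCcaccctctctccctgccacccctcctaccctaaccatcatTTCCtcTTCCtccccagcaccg
Apln: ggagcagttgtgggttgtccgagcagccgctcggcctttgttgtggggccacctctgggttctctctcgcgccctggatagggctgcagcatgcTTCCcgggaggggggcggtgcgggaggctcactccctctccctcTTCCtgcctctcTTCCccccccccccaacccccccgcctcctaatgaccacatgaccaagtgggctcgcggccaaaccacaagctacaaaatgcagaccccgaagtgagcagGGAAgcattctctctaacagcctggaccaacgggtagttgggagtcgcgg
Nrp2: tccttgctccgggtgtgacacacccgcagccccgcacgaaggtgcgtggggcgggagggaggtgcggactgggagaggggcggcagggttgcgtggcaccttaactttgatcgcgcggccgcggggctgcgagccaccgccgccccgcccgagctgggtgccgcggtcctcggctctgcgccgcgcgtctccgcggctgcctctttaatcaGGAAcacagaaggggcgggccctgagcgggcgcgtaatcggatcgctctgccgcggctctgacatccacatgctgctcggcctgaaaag

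A window was found for 9 of the 10 members, and Angpt2 is named only. GGAA occurred 9 times in the Tie1 window, 5 in Kdr and Nrp1, 4 in Flt1, Esm1 and Apln, 2 in Tek and Flt4 and 1 in Nrp2. Of 32851 promoter windows of that length 96.0% held it at least once, and 1.59% held it 9 times or more. The letters ACGTG of the hypoxia response core, present in 19.6% of windows, and TTTGAA of the CHR element of cell cycle genes, in 17.9%, were not found on either strand in the 9 windows. TATAAA, in 13.6% of windows, was found 1 time, in Flt1.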

How the data were processed

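Poly(A) RNA from 16 cultures was sequenced as paired reads after 17 cycles of PCR. The authors' deposited file holds raw counts of reads per gene, with no normalization, and the submitters' processing notes name STAR, featureCounts, mm10 and hg38 without roles. The strand setting of the counting is not given in the sources used here. Columns were assigned to cultures by label (0 columns left unused), and symbols, positions and exon lengths came from GENCODE vM21.

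The analysis used edgeR 4.0.16 under R 4.3.3 (filterByExpr by genotype, TMM, quasi-likelihood F test, genotype as the single term), with Benjamini-Hochberg adjustment over 12481 genes and a threshold of 0.05. The SE is the log2 fold change divided by the square root of F. CPM used TMM-scaled library sizes and log2 CPM a prior count of 2. Sex was tested in a fit of 4 groups of 4. Correlations used exact permutation of 8 libraries (SciPy 1.17.1, Python 3.11.15), two-sided. DESeq2 1.42.0 and limma 3.58.1 gave alternatives. Depth was 12717847 to 18624417 counts, and precision from it covers counting error only, since reads carry no molecular identifiers. The genotype fit was also run on simulated counts with known differences, drawn independently for each gene and library. That simulation held no factor shared across genes, so it does not bear on the proliferation score.

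The members and lists were chosen with earlier results of these data known. Named genes are all members, each pathway gene past the threshold, the gene with the largest change in each list, and the 3 genes most like Kdr, Angpt2, Esm1 and Apln. A few others (Vegfa, Pgf, Ptprb, Dok2, Dll4, Sema3g, Plxnd1 and undetected ligands) were named after their values were seen. Replicates were separate animals.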

Additional observations from a re-analysis of the deposited data

How the results depend on the processing

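Of 16 results (the log2 fold changes of the 10 members and of the 6 pathway genes past the threshold), 16 kept their direction and their side of the threshold with limma's voom with quality weights, with sex as a covariate, without the filter on low counts, with 10 counts or more required of each library and with size factors from DESeq2. DESeq2's Wald test passed 1 member (Tek) in place of 0 and 11 pathway genes in place of 6. With each library left out in turn, 0 to 2 members passed (Tek and Tie1 without APOE3 replicate 31, Tek without APOE4 replicate 36 or 43). For pathway genes the count ran from 1 (without APOE4 replicate 41) to 14 (without APOE3 replicate 31), with 2 and 3 without APOE3 replicates 30 and 33, and 3 and 11 without APOE4 replicates 35 and 36. The count for the score ran from 4 to 6, and for the sex comparisons it stayed at 0. The cause was not tested.

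With the proliferation score as a covariate, 0 pathway genes and 0 of all tested genes passed. The log2 fold change reversed for Flt1 (0.0701), Flt4 (0.0275), Nrp2 (-0.0924), Tek (0.0416), Tie1 (0.0384), Angpt2 (-0.0291), Esm1 (-0.0642), Apln (-0.259), Nid1 (-0.0120) and Gata2 (0.0077). The lowest and highest values with 1 library left out crossed 0 for Flt1 (-0.0368 to 0.0033), Flt4 (-0.0339 to 0.0020) and Nrp1 (-0.0052 to 0.0220). With the 2 farthest libraries left out, 0 pairs of members passed in place of 1, in an exact permutation test of 6 libraries that cannot go below p = 0.00278 before adjustment. Over all genes, 1597 passed, 846 to 2127 with 1 library left out and 1951 with DESeq2's Wald test. No paired analysis was possible because the labels give each culture its own number. In 20 checks (10 members, 2 genotypes) no library stood apart from its group by Dixon's test.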
